A study of Mus musculus with 4 samples.

Results

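The short fragments are the inserts of 15 to 20 nt among the small RNAs recovered with PIWIL1 from mouse testis, well below the length of a piRNA. They were chosen by length alone, and comprised 180068 distinct sequences of 2517272 in all, 123466 of them seen in replicate 1 and 78524 in replicate 2. Both libraries came from immunoprecipitations of PIWIL1 from testes of wild-type C57BL/6J mice of 10 weeks, followed by size selection on a gel. The labels do not say whether the replicates came from separate animals, and no control immunoprecipitation was analysed here, so the shares describe what was recovered and not an enrichment. The libraries held 4722785 and 6322998 reads with an insert, of which 196852 and 127127 were short fragments.

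PIWIL1, also called MIWI, is a PIWI protein of male germ cells that carries PIWI-interacting RNAs (piRNAs) from the pachytene stage of meiosis onward. A piRNA is cut from a long single-stranded precursor, usually so that it begins with U, and its 3′ end is then trimmed and methylated. The protein holds the first base in a pocket of its MID domain and the 3′ end in its PAZ domain, so the 5′ end is the fixed point from which positions in a piRNA are counted. The fragments were therefore placed against the inserts of 26 to 33 nt, called long inserts here, of the same libraries. A 5′ part equals the start of a long insert, a 3′ part equals its end, an inner part lies inside it, and an absent fragment is found in none of them. The long inserts have the length of piRNAs, but no insert was mapped to a genome or to tRNA, rRNA or snRNA sequences here, so single long inserts and fragments may come from such RNAs.

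The most abundant 5′ parts are shown first, because the bases that follow them recur among the abundant members. Each line gives the commonest long insert that holds the fragment, 5′ to 3′, with the fragment in capitals and T standing for U as in the deposited table.

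fragment 1: GCTCATGTCAGAACTGCAGagatcacatgg

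fragment 2: TACTCTTGAGCAGAAagatcagccacaca

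fragment 3: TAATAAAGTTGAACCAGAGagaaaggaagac

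fragment 4: ttgattaTGAATTCTCATGAGCATagatgg

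fragment 5: TGACAGAACGATCAAGACAGagatggaggg

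fragment 6: tgacatgaaTGATTGTGGAAGCCCagaga

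In all 6 of 6 the long insert continued with aga, the first 3 bases of the sequencing adapter agatcggaag. Fragments 1 and 2 were followed by agatc, the first 5 bases of the adapter. Fragments 4 and 6 are 5′ parts of rarer long inserts, while the commonest insert that holds them starts 7 and 9 nt upstream.

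Fragment 1, of 19 nt, had 1099 reads in replicate 1 and 1103 in replicate 2, or 204 ± 41.2 reads per 1000000 insert reads (SD, n = 2). Its commonest long insert, of 30 nt, had 448 and 413 reads, fewer than the fragment in both libraries. Fragment 2, of 15 nt, had 1148 and 803 reads, against 55 and 104 for its 29-nt insert. Each fragment thus outnumbered the commonest insert that holds it. Summed over all long inserts that start with the fragment, however, 3303 reads in both libraries faced the 2202 of fragment 1 and 557 the 1951 of fragment 2. Fragment 3 had 834 and 979 reads and its 31-nt insert 67 and 124. Fragment 5, of 20 nt, had 467 and 572 reads, against 93 and 136 for its insert. Fragment 6 had 536 and 477 reads, against 56 and 135. Of the 6 fragments, 5 therefore outnumbered that single commonest insert in both libraries. The exception was fragment 4, with 695 and 617 reads against 573 and 871, which was the commoner in replicate 1 only.

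Short fragments made up 4.17% of insert reads in replicate 1 (exact 95% interval 4.15% to 4.19%) and 2.01% in replicate 2 (1.9996% to 2.02%). The libraries thus differed far beyond counting error, and replicate 1 held more at every length from 15 to 20 nt. At 15 nt the shares were 0.673% and 0.236%, and at 20 nt they were 0.728% and 0.424%. No length stood out as a peak: the mean share rose from 0.454% ± 0.309 at 15 nt to 0.576% ± 0.214 at 20 nt and went on to 0.765% ± 0.127 at 25 nt. The difference between 15 and 20 nt was within the spread between the libraries, although each library by itself held more at 20 nt. Replicate 1 also held more inserts under 15 nt, 4.19% against 0.456%, and fewer of 29 to 31 nt, 71.0% against 77.7%. The part of RNA quality or of the gel cut in these differences was not tested.

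The fragments were a diverse population with a few abundant members. A read count of 1 over both libraries was found for 144450 sequences, 80.2% of the members, and 21922 sequences were seen in both libraries. In replicate 1 these shared sequences held 41.1% of all short reads, and in replicate 2 they held 51.9%. The 10 highest by mean held 3.19% and 4.81% of the short reads, the 100 highest 8.21% and 11.1%, and the 1000 highest 17.2% and 21.6%. Replicate 2 was the more concentrated at each of these steps. Among 244 members with 50 or more reads in total, 197 lay within 2-fold between the libraries per short read, 10 were at least 2-fold higher in replicate 1 and 37 at least 2-fold higher in replicate 2. The reads were followed by real adapter, since all of its first 20 bases were intact behind 98.0% and 98.8% of the short reads.

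Most fragments could be placed at the start of a long insert. By the rule that tries the start first, 5′ parts made up 64.0% of the short reads of replicate 1 (63.8% to 64.2%) and 66.9% of replicate 2 (66.7% to 67.2%). The 3′ parts made up 24.7% and 21.9%, inner parts 3.08% and 2.72%, and absent fragments 8.23% and 8.51%. The order of the places was the same in both libraries, and each step in it was larger than the spread between them. Placement hardly moved with length: 5′ parts held between 64.1% ± 2.48 of reads at 16 nt and 67.3% ± 2.16 at 19 nt. Among inserts of 21 to 25 nt the same rule gave 72.4% ± 1.46 as 5′ parts and 16.6% ± 1.03 as 3′ parts. The 5′ share of the short fragments was lower in both libraries, by more than the spread between them.

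The size of the 5′ share rests on the rule, because long inserts overlap and a fragment often occurs at several places. Fragments that are the start of a long insert and also lie elsewhere in another held 61.4% and 63.8% of the short reads. When each fragment was placed in the commonest long insert that holds it, 5′ parts were at 33.9% and 38.0% of reads, inner parts were at 33.3% and 30.6%, and 3′ parts at 24.5% and 22.9%. With the start tried last, 5′ parts were at 2.80% ± 0.376, and among long inserts with 10 or more reads at 43.4% ± 2.86. A start shared with a long insert was therefore available to most short reads, while the share whose best supported place is that start was close to 36.0% ± 2.84. That share includes ties between equally common long inserts, which went to the place nearest the 5′ end.

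Seen in the commonest long insert, the fragments gathered at both of its ends. An offset of 0 from its 5′ end was found for 37.0% and 41.5% of placed reads, against 2.72% and 2.67% at 1 nt and 2.47% and 2.26% at 4 nt. The 5′ end thus stood far above its neighbours in both libraries. Ties between equally common inserts were given to the smaller offset, which favours an offset of 0. How many reads such ties moved was not counted. Another, broader group began 9 to 16 nt in and held 39.5% and 35.4% of placed reads, highest at 12 nt in replicate 1 with 6.85% and at 11 nt in replicate 2 with 6.44%. At the other end, 26.7% and 25.0009% of placed reads stopped exactly at the 3′ end of that insert, against 5.97% and 4.94% that stopped 1 nt before it. The 3′ parts of this placement began at offsets of 10 to 16 nt in 93.9% and 92.4% of their reads, which for members of 15 to 20 nt follows from the length of the long inserts.

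The amount of short reads did not simply follow the amount of long inserts. Reads were compared at shared starts, taken as the first 15 nt. Summed over all starts of long inserts, there were 3.34 and 1.56 short per 100 long reads. The values for abundant starts that follow are medians and ranges over single starts, and no such sum was made for them. Whether abundant starts had fewer short reads per long read was therefore not tested. Among 286 starts with 1000 or more long reads in replicate 1, 280 also had short reads, at a median of 1.01 per 100 long reads. In replicate 2 the numbers were 490 of 553 starts and a median of 0.432. The spread between starts was wide: the middle 50% ran from 0.349 to 2.26 per 100 in replicate 1 and from 0.148 to 0.916 in replicate 2, while the highest starts reached 75.8 and 61.7. Only 2 starts in replicate 1 and 1 in replicate 2 were above 10 per 100.

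The 5 most abundant starts of long inserts illustrate this range. Their first 15 bases are printed because they define the starts compared.

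start 1: ttggctaagatcaag

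start 2: tttgaaatcaggact

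start 3: tagactgtgagctcc

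start 4: gatattttctccact

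start 5: tatactgactccaaa

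Start 1 had 112 short against 13733 long reads in replicate 1 and 70 against 32381 in replicate 2. Start 2 had more short reads per 100 long reads, 1.48 and 0.680. Start 4, the only start of these to begin with G, had 8 short against 11846 long reads in replicate 1. In replicate 2 it had none against 18952, which allows up to 0.0158 per 100. Starts 3 and 5 lay between these, at 0.459 and 1.02 per 100 in replicate 1 and 0.247 and 0.507 in replicate 2. Starts of like abundance thus differed widely in their short reads in each library.

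The fragments began with U less often than longer inserts, and more often with A. A first U was found in 62.4% and 66.3% of short reads, against 70.4% and 73.7% at 21 to 25 nt, 87.6% and 89.02% at 26 to 28 nt, and 90.5% and 90.5% at 29 to 31 nt. Each step was in the same direction in both libraries. Within the members the share did not move steadily with length, from 66.2% ± 4.25 at 15 nt and 61.4% ± 2.61 at 16 nt to 64.9% ± 2.31 at 20 nt. A first A was found in 19.4% and 15.5% of short reads, against 3.88% and 3.75% of reads of 26 to 33 nt. At 21 to 25 nt it was already at 16.2% and 12.9%. Most of the difference from the long inserts was thus shared with that length class.

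Fragments placed at the start of their commonest long insert kept the pattern of the long inserts, partly by construction, since they share its first bases. They began with U in 90.2% and 90.1% of reads, and had A at position 5 in 52.0% and 53.3% and G there in 7.37% and 7.36%. In the long inserts A at position 5 was at 46.2% and 46.3%, so these fragments held more of it in both libraries. Those starting 9 nt or more into the insert began with U in 39.4% and 41.3% and with A in 32.2% and 27.98% of reads, and held G at position 5 in 21.7% and 21.6%. Those starting 1 to 8 nt in were between, with a first U in 61.3% and 66.5%. Absent fragments also began mostly with U, in 53.5% and 56.2% of reads.

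The last base was U in 40.8% and 41.2% of short reads, close to its 41.1% and 41.8% at 21 to 25 nt. The share in short reads was above the 36.2% and 36.3% at 26 to 28 nt. It was below the 46.0% and 47.1% at 29 to 31 nt and the 47.4% and 48.2% over all reads of 26 to 33 nt. For fragments at the start of their commonest insert, whose 3′ end is not that of the insert, the last base was U in 37.6% and 37.5%. A last A was more frequent in the short reads, 19.2% and 17.7%, than in reads of 26 to 33 nt, 13.1% and 12.2%. It was not particular to the short reads, with 19.8% and 18.4% at 21 to 25 nt and 19.2% and 17.9% at 26 to 28 nt. Adenine at position 10, the mark of the ping-pong cycle, was at 28.8% and 29.05% of short reads, against 30.8% and 30.5% of the long ones. The positions correspond only where a fragment starts at the 5′ end of a long insert. Fragments at the start of their commonest insert had this adenine in 33.7% and 32.6% of reads. For those starting 9 nt or more in, it was 25.5% and 25.9%.

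The bases just after the fragments in their commonest insert resembled the adapter. This was examined for 81564 members with 5 or more bases left in that insert. The base after the fragment was A in 45.6% and 48.7% of reads, the next was G in 32.955% and 39.2%, the third A in 40.9% and 44.2% and the fourth U in 38.4% and 41.5%. At the same positions of all long inserts, these bases were at 27.1% and 26.8%, 20.7% and 20.9%, 27.1% and 26.9%, and 29.5% and 29.4%. All of these bases are those of the adapter in order, and each was above its level at those positions in both libraries.

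The match held for runs of bases too. Fragments followed by all of the first 5 adapter bases held 5.07% and 6.15% of these reads, against 0.0916% and 0.0869% at the same positions of all long inserts. For the first 3 bases the shares were 17.2% and 22.9%, against 2.32% and 2.32%. Replicate 2 was higher for both runs. With each member counted once, 5.85% were followed by the first 3 bases, against 2.36% over distinct long inserts, so the abundant members carried most of the difference. Among the 10 most abundant of these members 9 were followed by aga, among ranks 11 to 50 it was 55%, among ranks 51 to 200 it was 42%, and among ranks 201 to 1000 it was 18.1%. Beyond rank 10000 it was 5.15%. The share therefore fell at each step toward rarer members, and the part of adapter or primer annealing within longer RNAs was not tested. Without all members followed by aga, 5′ parts were at 61.6% ± 1.22 of short reads, against 65.4% ± 2.07 with them. A first U was at 62.3% ± 2.51, against 64.4% ± 2.75. Members followed by fewer adapter bases were kept.

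A different pattern preceded the fragments that begin inside their commonest insert. For 89099 members that start 5 nt or more into their commonest insert, the base 3 positions upstream was A in 49.5% and 45.0% of reads, against 29.7% and 29.5% at the same positions of all long inserts. With each member counted once it was 45.1% against 28.96%, so this pattern, unlike that after the fragments, did not come mainly from abundant members. Over these 89099 members it was clearest further into the insert. From an offset of 14 nt on, A was at 54.9% and 50.4% against 28.6% and 28.1%, and for offsets of 10 to 13 nt at 50.2% and 46.3% against 27.8% and 27.4%. For offsets of 5 to 9 nt it was at 44.5% and 40.4% against 33.5% and 33.3%. There A was also frequent 4 positions upstream, at 41.2% and 41.0%, against 36.2% and 35.7% at the same positions of all long inserts. The base 2 positions upstream was seldom A, at 17.3% and 18.2%, and the base next to the fragment was seldom G, at 12.5% and 13.2% against 21.2% and 21.4%. Many of these fragments are also the start of another, rarer long insert, so the pattern was examined in the 55046 members that start none. In these the base 3 positions upstream was A in 53.9% and 49.98% of reads, against 29.2% and 28.9%, no lower than in all 89099 members. Among them the share itself did not rise with the offset. It was 54.3% and 50.8% at 5 to 9 nt, against 33.4% and 33.2%. From 10 nt on it was 53.8% and 49.7%, against 28.1% and 27.7%. What makes these 5′ ends was not tested.

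The most abundant 3′ parts are shown in the same way, because they show where the fragments that begin inside a long insert start.

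fragment 7: tttgaaatcaggACTGTTCTGGAAATTCC

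fragment 8: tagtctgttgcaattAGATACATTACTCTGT

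fragment 9: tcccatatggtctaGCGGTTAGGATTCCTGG

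fragment 10: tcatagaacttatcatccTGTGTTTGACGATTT

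Fragment 7 is the last 17 nt of an abundant 29-nt insert and starts at an offset of 12 nt. It had 367 and 352 reads, against 6861 and 12742 for the whole insert. This insert is the one with start 2 above, and 26 members had it as their commonest insert, with 772 and 704 reads together. Fragment 8 had 137 reads in replicate 1 and 44 in replicate 2, against 2883 and 3846 for its insert. Its level per 1000000 insert reads differed widely between the libraries, 29.01 against 6.96. Fragment 9 had 116 and 72 reads, against 169 and 262 for its 31-nt insert. The fragment was rarer than its insert in both libraries, as were fragments 7 and 8. The 6 members with the commonest insert of fragment 9 had 495 and 336 reads together, however, more than that insert in both libraries. Fragment 10 had 60 and 74 reads and was the end of 7 long inserts with 9 reads in all, so its support by long reads was thin. The 5 members with the same commonest insert had 146 and 173 reads together.

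Inner parts by the start-first rule were few and weakly supported. The most abundant were these.

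fragment 11: tgattaTGAATTCTCATGAGCACagatg

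fragment 12: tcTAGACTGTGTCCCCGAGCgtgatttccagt

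fragment 13: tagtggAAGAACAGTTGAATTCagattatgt

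fragment 14: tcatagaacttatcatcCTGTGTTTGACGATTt

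Fragment 11 had 59 and 82 reads, fragment 12 had 15 and 10, fragment 13 had 8 and 9, and fragment 14 had 8 and 5. Fragment 11 differs only at its last base from fragment 4, which had 695 and 617 reads. The long inserts that hold fragments 11 and 13 had 1 read in all. Fragments 11 and 13 are also followed by the first 4 adapter bases, agat, and fragment 14 belongs to the same set as fragment 10.

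Most reads of absent fragments, 64.9% and 63.5%, were 1 mismatch from a stretch of a long insert. Those 1 mismatch from the start of one made up 35.6% and 37.6%. How often such matches arise by chance was not estimated. The last base alone accounted for 16.3% and 19.3%, which became the start of a long insert once that base was left off. Inserts of 21 to 25 nt or of 34 nt and more held 5.46% and 6.38%. None of these matches was found for 32.9% and 34.1% of the reads of absent fragments, in 8882 members. The absent share itself moved with the reference: it was 23.5% ± 0.323 against long inserts with 10 or more reads, 5.31% ± 0.00417 with 1 mismatch allowed at the start of a long insert, and 0.903% ± 0.274 among members with 2 or more reads in the library.

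The most abundant absent fragments show the last-base differences. Each is printed in lower case and in full.

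fragment 15: acaacagacttcaccc

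fragment 16: tccctggttaggattcggc

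fragment 17: tgattgtggaagcca

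fragment 18: tgaatgattgtggaagcct

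Positions are counted from 1 at the 5′ end, and a substitution gives the base of the absent fragment first. Fragment 15 had 25 and 22 reads, and the member that differs by C16T had 172 and 110. Fragment 17 had 18 and 14 reads and differs by A15C from fragment 6, which had 536 and 477. Fragment 18 had 8 and 23 reads and differs by T19C from a member with 47 and 52. In these 3 the difference was at the last base and the other form was the commoner in both libraries. Fragment 16 had 16 and 22 reads, and its nearest member, C19T, was rarer, with 1 and 2 reads. Fragments 9 and 16 share the stretch ggttaggattc, and the RNA they come from was not determined.

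MicroRNAs contributed little. Of the 180068 members, 110 lay within a mature mouse microRNA of the RefSeq table (GRCm38.p6), with 162 and 102 reads, 0.0823% and 0.0802% of the short reads. The largest set was 12 members of mmu-miR-7210-5p (chromosome 14, 24088877 to 24088899, plus strand), with 51 and 38 reads. Its mature sequence is shown with the seed, bases 2 to 8, in capitals.

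mmu-miR-7210-5p: uAACAUUGuagacaggcacaaag

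All 12 of these members, and the 12 of its partner mmu-miR-7210-3p with 16 and 12 reads, were also found within long inserts. The 3 members of mmu-miR-203-3p, with 5 and 12 reads, were absent from long inserts.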

How the data were processed

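Small RNAs recovered with PIWIL1 from testes of wild-type C57BL/6J mice were read in 2 libraries, grouped by their titles. The authors deposited read counts, 1 row per distinct 50-nt read with its count in each replicate, per the file headers; the adapter is still present. Per the labels' protocols, size selection was on a gel, and a NEBNext small RNA set served for library preparation. The submitters' processing notes name Bowtie, STAR and mm10 with no settings, and the table holds no alignment. PCR copies were not removed.

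Inserts were cut before the first exact match to the first 10 bases of the adapter, read from the data as the commonest 10 bases after base 30, and identical inserts were summed. No match was found in 1.95% and 1.27% of reads of replicates 1 and 2, while 0.409% and 0.0651% held no insert before the adapter; neither kind was used. Fragments of 15 to 20 nt were searched exactly in all inserts of 26 to 33 nt of either library. Those found at several places were called 5′ part first, then 3′ part, then inner part. Offsets and neighbouring bases come from the commonest insert that holds the fragment, with ties given to the smaller offset. Sequences named are the most abundant seen in both libraries, 6 for 5′ parts and 4 for each other place. The members and rules were chosen with earlier results of these data known. With 1 group there was no contrast to test, so values are given per library with SD (n = 2) and, for the main shares, exact 95% (Clopper-Pearson) intervals that cover counting error only. Alternatives covered the adapter match, the reference inserts, the order of places and counting each insert once. Python 3.11.15, pandas 2.3.3, numpy 2.4.6 and SciPy 1.17.1 were used, and trimming and placing were tested on simulated data. The RNA-seq table was not used here.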

Additional observations from a re-analysis of the deposited data

How the results depend on the processing

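With 1 group no contrast was tested, and no paired analysis was possible because no groups were compared. Over 35 alternatives to 4 shares (fragments among insert reads, 5′ parts, absent fragments and a first U), 17 stayed within 1 SD of the value reported, among them all 8 with a shorter or longer adapter match. The count includes the 8 that leave out a library, which with 2 libraries cannot exceed 1 SD. Leaving out a library gave 2.01% to 4.17% for fragments, 64.0% to 66.9% for 5′ parts, 8.23% to 8.51% for absent fragments and 62.4% to 66.3% for a first U. The 5′ share moved to 54.2% with each insert counted once, 82.2% among members with 2 or more reads, 55.2% and 43.4% against long inserts with 2 or more and 10 or more reads, 62.6% against those of 29 to 31 nt, 61.02% against those of the other library and 2.80% with the start tried last. It was 36.0% by the commonest insert and 61.6% without members followed by aga, both chosen after seeing the data. In the same order, the absent share moved to 12.99%, 0.903%, 13.5%, 23.5%, 9.71% and 10.7%, and to 5.31% with a mismatch allowed. A first U moved to 59.8% with each insert counted once and 71.4% among members with 2 or more reads.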

Other observations

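Fragments whose reverse complement lies in a long insert held 1.42% and 1.26% of short reads in replicates 1 and 2. The share was 1.63% and 1.38% among 5′ parts, 1.08% and 1.03% among 3′ parts, 1.86% and 2.17% among inner parts, and 0.710% and 0.638% among absent fragments. How much of these shares would arise by chance was not estimated.

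For long inserts of 32 nt, start pieces of 15 to 17 nt were paired with end pieces of the same insert that are also members. Pieces that meet with no gap made 1936 pairs, against 1538 that overlap by 1 nt, 1696 by 2 nt and 1752 by 3 nt. Long inserts of a locus share pieces, so these pairs are not independent, and the difference was not tested.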
